A study of Mus musculus with 16 samples.

Results

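Regulators of G protein signalling (RGS proteins) are the enzymes that switch heterotrimeric G proteins off. When a receptor coupled to a G protein is occupied, the Gα subunit binds GTP and signals until the GTP is hydrolysed. The RGS domain speeds that hydrolysis on the Gα subunits that a given member acts on. The family is divided by sequence into subfamilies. R4 members are small proteins built around the RGS domain and act on Gαi and Gαq, with *Rgs2* preferring Gαq. RZ members act on Gαi and Gαz. In the R12 subfamily, *Rgs12* and *Rgs14* also carry Ras-binding and GoLoco domains. In brown fat the β-adrenergic receptor raises cAMP through Gαs and drives thermogenesis, while Gαi-coupled receptors oppose it.

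Described here are 10 RGS genes of the mouse, chosen by name among the 54347 genes of the deposited table. They were the R4 genes *Rgs2*, *Rgs3*, *Rgs4*, *Rgs5* and *Rgs16*, the RZ genes *Rgs17* and *Rgs19*, and the R12 genes *Rgs10*, *Rgs12* and *Rgs14*. All 10 were found, and 7 had enough counts to be tested among 13150 genes.

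The cells were wt1-SAM brown adipocytes, a single brown preadipocyte line that carries the CRISPRa SAM machinery, by which guide RNAs recruit transcriptional activators to a chosen gene. All cells, controls included, had this machinery and were differentiated with rosiglitazone, insulin, T3, dexamethasone, indomethacin and IBMX, transfected on day 4 with 250 ng of plasmid and harvested on day 7. The 4 groups were empty vector control, empty vector with 1 µM isoproterenol for 24 h, sgRNA control and sgRNA with the same isoproterenol treatment. The sgRNA vectors were a pair directed at the long noncoding RNA gene *Gm15551*. Isoproterenol is a β-adrenergic agonist. Each group held 4 libraries of polyadenylated RNA, numbered as replicates 3 to 6. The labels do not say that these came from separate cultures, so p-values measure only the spread between these libraries, which may be technical.

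Estimated counts per library summed to between 9053521 and 16546187, of which 11.7% to 51.8% fell on 1 ribosomal RNA gene. That gene was picked as the one with the most counts over all libraries. Levels are given as CPM, that is counts relative to the scaled total of the library. The limit that a count of 0 allows, taken as 3 counts, was 0.166 to 0.390 CPM, and it covers counting error only. All 7 genes of the adipocyte marker list, *Adipoq*, *Fabp4* and *Pparg* among them, were counted in every library. *Gm15551* lay between 1.04 and 3.92 CPM in the 8 sgRNA libraries and between 0 and 1.35 CPM in the 8 empty vector libraries, which overlapped across treatments. Within each treatment the plasmid groups did not overlap. *Ucp1*, the uncoupling protein of brown fat, rose with isoproterenol, with a log2 change of 4.03 (SE 0.37, adjusted p = 7.4e-06, edgeR). It was at 0 to 0.72 CPM in empty vector control and 4.37 to 10.0 CPM in stimulated empty vector libraries. In sgRNA cells it was at 0.22 to 0.98 against 5.94 to 15.5 CPM. The control levels were close to the limit given above, so the size of this rise is uncertain. Replicate number separated the libraries more than isoproterenol did, since 28.6% of the variance lay on the first principal component and a share of 0.957 of that component went with the replicate number.

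Promoter sequence is shown for the genes on which the results turn: *Rgs17*, which was called for isoproterenol, *Rgs3*, which was called for it in some fits, and *Rgs2*, which differed with replicate number. Genes that answer cAMP through CREB often carry the palindrome TGACGTCA or its shorter core TGACG near the start. Each line gives the 250 bases before a RefSeq transcription start on GRCm38.p6, 5′ to 3′ on the gene's strand, with TGACG and its reverse complement CGTCA in capitals. *Rgs17* is at chr10:5922401-5922650 (minus strand), *Rgs2* at chr1:144004150-144004399 (minus strand), and the starts of *Rgs3* at chr4:62559597-62559846 and chr4:62619422-62619671 (plus strand).
Rgs17: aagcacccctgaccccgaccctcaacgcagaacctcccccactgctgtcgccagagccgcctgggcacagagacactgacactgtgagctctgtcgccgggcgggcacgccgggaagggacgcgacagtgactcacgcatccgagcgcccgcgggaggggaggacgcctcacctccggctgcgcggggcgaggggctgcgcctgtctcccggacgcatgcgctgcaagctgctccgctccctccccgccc
Rgs3, start 1: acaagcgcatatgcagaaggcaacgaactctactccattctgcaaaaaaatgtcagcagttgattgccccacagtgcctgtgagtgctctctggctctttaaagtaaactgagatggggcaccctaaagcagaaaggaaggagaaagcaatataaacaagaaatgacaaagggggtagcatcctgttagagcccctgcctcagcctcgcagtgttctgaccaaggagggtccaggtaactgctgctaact
Rgs3, start 2: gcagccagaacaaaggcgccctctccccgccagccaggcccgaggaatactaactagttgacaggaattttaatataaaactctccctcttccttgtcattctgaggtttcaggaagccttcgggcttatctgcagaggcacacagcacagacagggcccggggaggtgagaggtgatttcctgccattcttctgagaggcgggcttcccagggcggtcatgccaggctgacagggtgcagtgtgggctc
Rgs2: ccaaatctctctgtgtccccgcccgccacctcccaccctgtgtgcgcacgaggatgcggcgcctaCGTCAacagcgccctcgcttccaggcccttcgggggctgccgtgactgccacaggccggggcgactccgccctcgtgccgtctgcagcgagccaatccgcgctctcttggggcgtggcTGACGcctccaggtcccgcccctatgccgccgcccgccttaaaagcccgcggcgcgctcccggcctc

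The windows of *Rgs17* and *Rgs2* each held 72.4% G or C, against 48.4% and 56.8% in the windows of *Rgs3*. Over windows from 250 bases before to 50 after the start, 13 windows of the RefSeq table used here matched 9 of the members, all but *Rgs14*. Only windows on the chromosome of the gene itself were counted. TGACG on either strand was found in 3 of the 13 windows, each of a different gene. *Rgs2* held it at −185 and −67, counted from the start to the first base of the match, *Rgs4* at −236 and −141, and *Rgs12* at −82 of its start 2. The longer TGACGTCA, which contains TGACG on both strands, was found in 0 of the 13 windows. Of all 32851 RefSeq promoter windows of that length, 20.8% held TGACG and 1.79% held TGACGTCA, so the share of members' windows with TGACG was close to that of all windows. No match means only that these letters are absent from the window.

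Compared per length of exon, which allows genes to be set beside each other, *Rgs19* stood above every other member in every group. In empty vector control cells its level was 5.46 ± 1.46 CPM per kb (SD, n = 4). The next was *Rgs12* at 0.747 ± 0.146 CPM per kb, and the ranges of these 2 genes did not overlap. *Rgs2* followed at 0.679 ± 0.631 CPM per kb, *Rgs10* at 0.603 ± 0.396, *Rgs3* at 0.528 ± 0.170, *Rgs4* at 0.456 ± 0.473 and *Rgs17* at 0.080 ± 0.063. From *Rgs12* down to *Rgs17*, each gene's range overlapped that of its neighbour in this order. The length used was that of all annotated exons of a gene together, 10801 bases for *Rgs3* and 2230 for *Rgs19*. The transcripts present may be shorter, so the order is approximate. In CPM, without this scaling, *Rgs3* stood above *Rgs2* in empty vector control cells, with means of 5.71 and 2.46. In stimulated sgRNA cells the order was *Rgs19*, *Rgs2*, *Rgs10*, *Rgs12*, *Rgs3*, *Rgs17* and *Rgs4*, and there the ranges separated *Rgs10* from *Rgs12*, *Rgs12* from *Rgs3* and *Rgs3* from *Rgs17*.

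**Figure D1:**
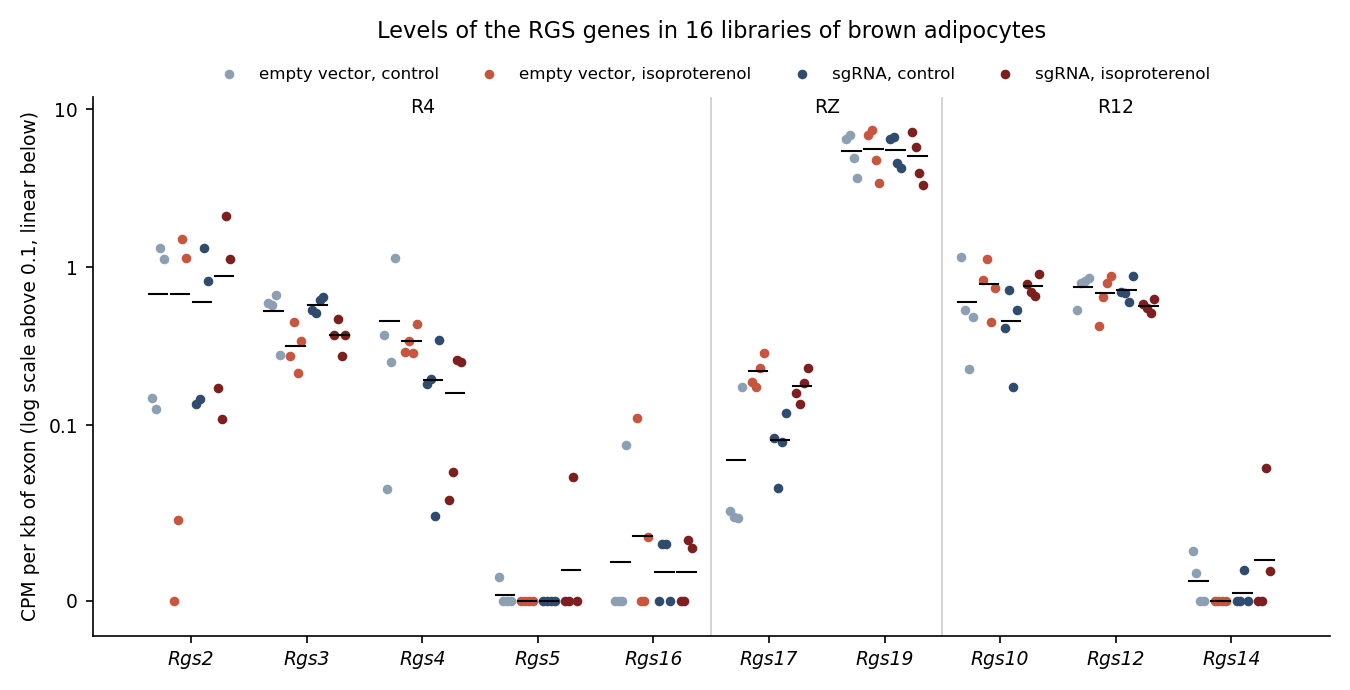
Levels of the 10 RGS genes in CPM per kb of exon (vertical axis, logarithmic above 0.1 and linear below), by subfamily and gene on the horizontal axis. Each point is a library, colours give the 4 groups and black bars the group means (n = 4). *Rgs19* lies above all other members, and *Rgs5*, *Rgs16* and *Rgs14* lie at or near 0.

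The remaining 3 genes were close to the limit of detection. *Rgs5*, an inhibitor of Gαi and Gαq known as a marker of pericytes, had 5 counts in all and was at 0 in 14 of 16 libraries. The mural cell marker list, from which *Rgs5* had been left out, had all 7 of its genes counted in every library, with a summed level of 32.8 to 104 CPM. *Rgs16*, an R4 member, had 9 counts in all, at most 2 in any library and 0 in 9 libraries. *Rgs14* had 9 counts, at most 4 in a library and 0 in 11 libraries. For these genes neither a change nor its absence was detectable at this depth.

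*Rgs17* (ENSMUSG00000019775, chr10:5825663-5922400, minus strand), which encodes the RZ member also called RGSZ2, was the member that rose with isoproterenol. In empty vector control cells it was at 0.42, 0.39, 0.39 and 1.45 CPM in replicates 3, 4, 5 and 6, which rested on 7, 6, 3 and 14 counts. With isoproterenol it was at 1.55, 1.44, 1.91 and 2.36 CPM, from 12, 26, 15 and 28 counts. The control library of replicate 6 stood above the other 3 control libraries and reached just into the stimulated range, so the groups touched.

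In sgRNA control cells *Rgs17* was at 0.77, 0.53, 0.75 and 0.99 CPM, and with isoproterenol at 1.33, 1.13, 1.52 and 1.91 CPM. Here every stimulated library lay above every control library. Within all 8 pairs of the same plasmid and replicate number, the stimulated library was the higher. Averaged over both plasmids, the log2 change of *Rgs17* was 1.21 (SE 0.28, 95% confidence interval 0.61 to 1.81, edgeR's quasi-likelihood test, adjusted p = 0.0221). In a fit that took the replicate number as a block it was 1.24 (SE 0.21, adjusted p = 0.000527).

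A gene was called where its adjusted p was below 0.05 and its log2 change exceeded 0.5 in size. *Rgs17* was the 1 of 7 tested members called for the averaged isoproterenol effect, beside 2.65% of all tested genes. With the replicate block, 2 of 7 members were called, beside 5.70% of all genes. The median log2 change of the 7 members was −0.04, and that of all tested genes was 0.00466. The call of *Rgs17* without the block was close to the threshold. It was kept in 12 of 20 fits that left out a library or a replicate number, with an adjusted p from 0.000987 to 0.0488. In the other 8, which left out replicate 3, 4 or 5, the empty vector control library of replicate 3, 4 or 5, or the stimulated library of replicate 6 with either plasmid, the adjusted p ran from 0.0501 to 0.209. With the block, *Rgs17* was called without any of the 4 replicate numbers (adjusted p from 0.00147 to 0.0121), with log2 changes of 1.15 to 1.45.

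Within each plasmid the change of *Rgs17* pointed the same way. In empty vector cells it was 1.47 (SE 0.41, adjusted p = 0.123), and with the block 1.52 (SE 0.30, adjusted p = 0.00391, edgeR), a call made there in 4.47% of all genes against 0.829% without the block. DESeq2's Wald test called it in both fits, with an adjusted p of 0.0395 without the block and 0.00445 with it. Of the 20 unblocked edgeR fits that left out a library or a replicate number, 18 did not call *Rgs17* in empty vector cells (adjusted p from 0.138 to 0.759). The 2 that did left out all of replicate 6 (1.98, adjusted p = 0.0220) or its empty vector control library (2.14, adjusted p = 0.00658). With the block, the call was lost without replicate 4 (adjusted p = 0.0613). In sgRNA cells, where 0.700% of all genes were called without and 3.90% with the block and no member was, the change was 0.94 (SE 0.39, adjusted p = 0.475). With the block it was 0.95 (SE 0.29, adjusted p = 0.0530, edgeR). The difference between both effects was −0.53 (SE 0.56, 95% confidence interval −1.73 to 0.67, adjusted p = 1.00), so the data did not separate the response in sgRNA cells from that in empty vector cells.

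*Rgs3* (ENSMUSG00000059810, chr4:62559847-62704001, plus strand), an R4 member of several isoforms that acts on Gαi and Gαq and can bind Gβγ, was lower with isoproterenol, and whether it was called depended on the block and on the tool. In empty vector control cells it was at 6.44, 6.24, 7.14 and 3.01 CPM in replicates 3 to 6, and with isoproterenol at 2.96, 4.81, 2.29 and 3.70 CPM. The control library of replicate 6, which was the highest of its group for *Rgs17*, was here the lowest, and replicate 6 was the pair in which *Rgs3* was higher after stimulation.

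In sgRNA control cells *Rgs3* was at 5.81, 5.55, 6.66 and 6.99 CPM, and with isoproterenol at 4.00, 5.04, 2.96 and 4.03 CPM. Every stimulated library lay below every control library. Over both plasmids the stimulated library was lower in 7 of 8 pairs. The averaged log2 change was −0.67 (SE 0.19, 95% confidence interval −1.06 to −0.27, adjusted p = 0.0529, edgeR) and with the replicate block −0.67 (SE 0.17, adjusted p = 0.0125), so that in edgeR *Rgs3* fell by the blocked test and missed the threshold without it. DESeq2's Wald test called it in both fits, with −0.66 (SE 0.20, adjusted p = 0.0151) without the block and −0.68 (SE 0.19, adjusted p = 0.0028) with it.

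Without the empty vector control library of replicate 6, *Rgs3* changed by −0.77 with an unblocked adjusted p of 0.00927. It also passed without the stimulated empty vector library of replicate 4 (adjusted p = 0.0327) or without all of replicate 6 (adjusted p = 0.0498), and missed the threshold in the other 17 of 20 such fits, where the adjusted p ran from 0.0543 to 0.366. With the block, leaving out replicate 4 or 6 kept the call of *Rgs3*, and leaving out replicate 3 or 5 ended it (adjusted p = 0.0793 and 0.0943). The change in empty vector cells was −0.70 (SE 0.27) and in sgRNA cells −0.64 (SE 0.26), and the difference between them was 0.07 (SE 0.37, adjusted p = 1.00). Of the distinct 50-base words in the transcripts of *Rgs3*, 11.4% also occurred in another gene, the processed pseudogene *Gm5763*, which had 0 counts in every library.

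**Figure D2:**
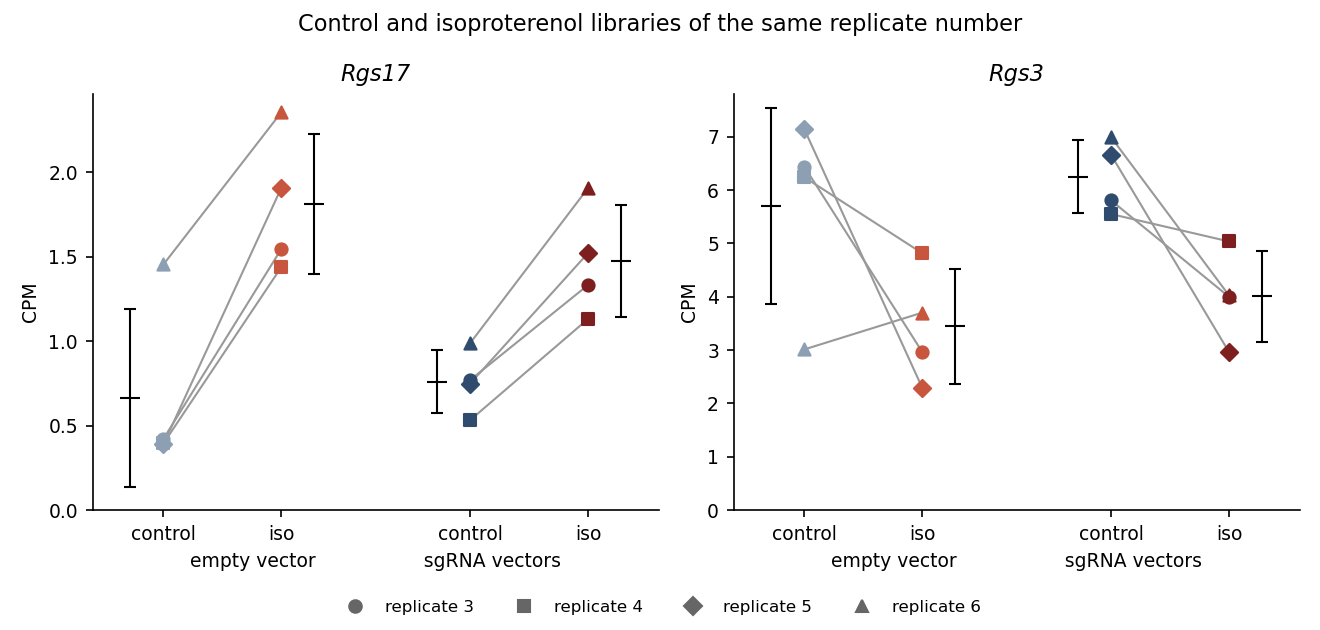
Levels of *Rgs17* (left) and *Rgs3* (right) in CPM, with control and isoproterenol (iso) libraries of the same plasmid and replicate number joined by lines. Black bars are the mean ± SD of each group (n = 4). *Rgs17* is higher after isoproterenol in 8 of 8 pairs, and *Rgs3* is lower in 7 of 8, the exception being replicate 6 of the empty vector.

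Other measures moved with the same treatment. Of the 8 brown adipocyte markers 7 were tested, and 2 rose with isoproterenol, *Ucp1* and *Ppargc1a*, a coactivator of thermogenic genes. With the block *Cidea* was called higher as well, and 0 were called lower in either fit. The list summed to 202 to 424 CPM in empty vector control and 255 to 480 CPM in stimulated empty vector libraries. In sgRNA cells it summed to 233 to 442 against 340 to 595 CPM. Most of this sum was *Elovl3*, with group means of 236 to 316 CPM. *Ucp1*, *Cidea*, *Prdm16*, *Dio2* and *Cox8b* each had a mean of at most 9.35 CPM in every group. Of the 7 adipocyte markers, 3 fell with isoproterenol (*Adipoq*, *Lipe* and *Pnpla2*), and 5 with the block, while all 7 estimates were below 0. The summed level of the 7, most of it *Fabp4*, was 13025 to 22606 CPM in empty vector control and 9501 to 17390 CPM in stimulated empty vector libraries, and 16171 to 20989 against 9920 to 19319 CPM in sgRNA cells. The immune marker list summed to 8.18 to 14.4 CPM in empty vector control and 14.4 to 22.6 CPM in stimulated empty vector libraries, and to 6.44 to 13.8 against 13.6 to 22.1 CPM in sgRNA cells. *Cd68*, a lysosomal protein of macrophages that other cells also make, was the 1 immune marker of 6 counted in every library, and it rose with a log2 change of 0.91 (SE 0.17, adjusted p = 0.00518, edgeR). It made up most of that sum, and each of the other 5 immune markers, *Ptprc*, *Adgre1*, *Lyz2*, *Csf1r* and *Cd3e*, had a mean of at most 0.257 CPM in every group. Of the 7 mural markers, 0 were called without the block, and 3 were lower and 1 higher with it. Of the preadipocyte or fibroblast markers 3 of 6 were tested. The unblocked fit called 0 of them, and the blocked fit called *Ly6a*, which was higher by a log2 change of 1.09 (SE 0.11, adjusted p = 4.9e-06, edgeR). The list summed to 20.9 to 98.9 CPM in empty vector control and 26.8 to 117 CPM in stimulated empty vector libraries, and to 14.1 to 63.3 against 21.5 to 88.8 CPM in sgRNA cells. The share of counts on the ribosomal RNA gene was higher after isoproterenol in 6 of 8 pairs. It was 19.7% to 47.3% in empty vector control and 22.1% to 51.8% in stimulated empty vector libraries, and 17.8% to 20.2% against 11.7% to 28.7% in sgRNA cells. Their part in the changes of *Rgs17* and *Rgs3* was not tested. In bulk RNA, fewer cells of a type and less RNA per cell cannot be told apart.

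The other 5 tested members passed the threshold for isoproterenol neither without nor with the block. *Rgs10* (chr7:128373621-128418758), a small R12 member that consists of little more than the RGS domain and acts on Gαi, had the largest estimate among them. It was at 1.99, 0.92, 0.39 and 0.83 CPM in empty vector control and 1.42, 1.94, 0.76 and 1.26 CPM in stimulated empty vector libraries of replicates 3 to 6. In sgRNA cells it was at 0.70, 1.22, 0.30 and 0.91 CPM in control and 1.33, 1.19, 1.12 and 1.55 CPM after stimulation. The groups overlapped with both plasmids, and 6 of 8 pairs were higher after isoproterenol. The averaged log2 change was 0.54 (SE 0.32, adjusted p = 0.415, edgeR), and with the block 0.59 (SE 0.26, adjusted p = 0.120).

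*Rgs12* (chr5:34949445-35039644), the large R12 member, was at 4.51, 6.70, 6.88 and 7.27 CPM in empty vector control and at 3.61, 5.48, 6.74 and 7.40 CPM in stimulated empty vector libraries. In sgRNA cells it was at 5.88, 5.85, 5.09 and 7.45 CPM in control and 4.98, 4.70, 4.33 and 5.30 CPM after stimulation. It was lower after isoproterenol in 7 of 8 pairs, by an averaged log2 change of −0.22 (95% confidence interval −0.54 to 0.10, adjusted p = 0.491, edgeR). With the block the change was −0.23 (SE 0.12, adjusted p = 0.194). Of the 50-base words of *Rgs12*, 4.28% were shared with another gene, the antisense gene *Gm43791*, which was at 0 counts in every library.

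*Rgs19* (chr2:181688419-181693977), the RZ member first known as GAIP, had the narrowest interval of the 7 with the block, though not without it. Its averaged log2 change with isoproterenol was −0.04 (SE 0.20), and with the block −0.06 with a 95% confidence interval of −0.21 to 0.10 (adjusted p = 0.646, edgeR). *Rgs2* changed by 0.28 (SE 0.81, adjusted p = 0.907) and with the block by 0.09 (SE 0.24, adjusted p = 0.842). *Rgs4* changed by −0.32 (SE 0.50, adjusted p = 0.808) and with the block by −0.19 (SE 0.40, adjusted p = 0.790). The intervals of *Rgs2* and *Rgs4* without the block reached from −1.44 to 2.01 and from −1.38 to 0.74. With the block, which takes up the differences between replicate numbers, they reached from −0.42 to 0.60 and from −1.05 to 0.67.

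**Figure D3:**
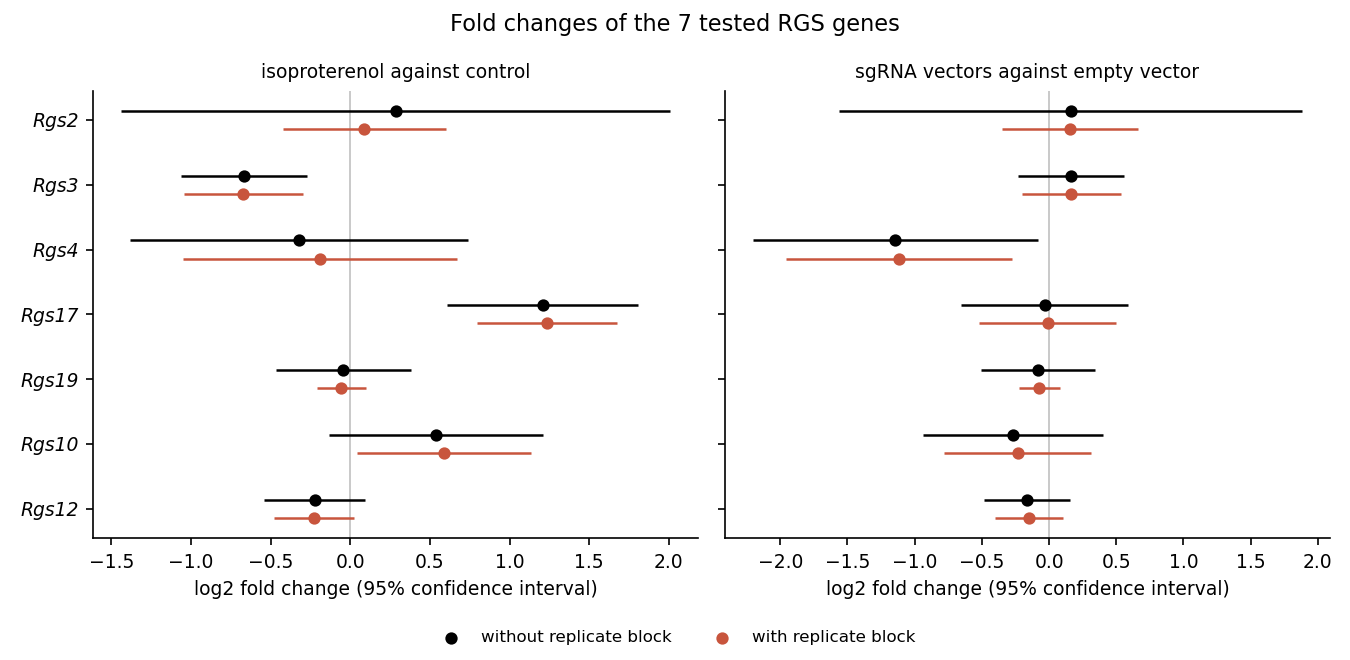
Log2 fold changes of the 7 tested RGS genes with 95% confidence intervals, for isoproterenol against control averaged over both plasmids (left) and for the sgRNA vectors against the empty vector averaged over both treatments (right). Black is the fit without and red the fit with the replicate block. For isoproterenol the intervals of *Rgs17* and *Rgs3* exclude 0 in both fits.

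No member was called for the sgRNA effect, averaged or within either treatment, nor for the interaction of plasmid and treatment, in edgeR's test without or with the block. Without the block 0% of all tested genes were called for the averaged sgRNA effect, although 437 genes had an unadjusted p below 0.05, and for the interaction 0%, with 52 such genes. With the block the calls were 0.266% of genes for the averaged sgRNA effect, 0.0304% in control cells, 0.122% in stimulated cells and 0% for the interaction. *Rgs4* was the 1 member with an unadjusted p below 0.05 for the averaged sgRNA effect, and 0 members had one for the interaction. DESeq2 also called 0 members for both, a count given without DESeq2's share of all tested genes. The log2 difference of *Gm15551* itself was 2.37 (SE 0.39, adjusted p = 0.0989), and with the block 2.41 (adjusted p = 0.00055, edgeR). Without the block it also passed without the filter on low counts (2.39, adjusted p = 0.00167, edgeR) and with DESeq2's Wald test (2.40, adjusted p = 1.1e-05).

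*Rgs4* (chr1:169741477-169747642), an R4 member whose protein is degraded through the N-degron pathway, had the lowest unadjusted p of the members for the sgRNA vectors. In control cells it was at 1.14, 0.20, 0.78 and 3.53 CPM with the empty vector and at 0.56, 0.61, 0.15 and 1.06 CPM with the sgRNA vectors, in replicates 3 to 6. In stimulated cells it was at 0.90, 1.05, 0.89 and 1.35 CPM with the empty vector and 0.18, 0.23, 0.80 and 0.78 CPM with the sgRNA vectors. Control groups overlapped, and stimulated groups did not. The stimulated groups came closest in replicate 5, where 0.89 CPM (empty vector) and 0.80 CPM (sgRNA) rested on 7 and 10 counts. Their separation there thus depended on the scaling of the libraries. The sgRNA library was the lower in 7 of 8 pairs.

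The averaged log2 change of *Rgs4* was −1.14 (SE 0.50, 95% confidence interval −2.20 to −0.09, adjusted p = 1.00, edgeR) and with the block −1.12 (SE 0.40, adjusted p = 0.289). It rested on 2 to 34 counts per library. Without the empty vector control library of replicate 6, the highest, the unblocked change of *Rgs4* was −0.66 (SE 0.44). The averaged sgRNA changes of the other 6 tested members lay between −0.27 for *Rgs10* and 0.16 for *Rgs3*, with adjusted p-values of 1.00 and, with the block, of at least 0.674. With the sgRNA vectors *Rgs17* was lower in 4 of 4 pairs of stimulated cells and higher in 3 of 4 pairs of control cells. *Rgs3* was higher in 4 of 4 pairs of stimulated cells and lower in 3 of 4 pairs of control cells. In stimulated cells these were log2 changes of −0.30 (SE 0.38) and 0.20 (SE 0.27) that did not pass the test.

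Of the marker lists, 0 genes were called for the averaged sgRNA effect without the block. With it, *Cidea* of the brown adipocyte list was called higher (log2 change 1.05, SE 0.21, adjusted p = 0.0348, edgeR) and *Ly6a* of the preadipocyte or fibroblast list lower (−0.74, SE 0.11, adjusted p = 0.00491). The estimates were above 0 for all 7 tested brown adipocyte markers and below 0 for 6 of 7 mural markers, of which 0 were called. The share of counts on the ribosomal RNA gene was lower with the sgRNA vectors in every pair of the same treatment and replicate number. In control cells it was 17.8% to 20.2%, against 19.7% to 47.3% with the empty vector. In stimulated cells it was 11.7% to 28.7%, against 22.1% to 51.8% with the empty vector. The part of the markers and of this share in the sgRNA estimates of the members was not tested.

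For *Rgs2* and *Rgs19*, libraries lay apart by replicate number within every group. *Rgs2* (chr1:143999338-144004161) was at 0.54, 0.46, 4.80 and 4.05 CPM in replicates 3 to 6 of empty vector control cells, and at 0, 0.17, 5.47 and 4.12 CPM after isoproterenol. In sgRNA cells it was at 0.49, 0.53, 4.79 and 2.96 CPM in control and 0.62, 0.40, 7.69 and 4.10 CPM after stimulation. All 8 libraries of replicates 3 and 4 lay at or below 0.62 CPM, and all 8 of replicates 5 and 6 at or above 2.96 CPM.

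*Rgs19* went the other way. It was at 14.4, 15.2, 10.9 and 8.20 CPM in empty vector control cells and at 15.3, 16.5, 10.7 and 7.57 CPM after isoproterenol. In sgRNA cells it was at 14.4, 14.8, 10.2 and 9.42 CPM in control and 15.99, 12.8, 8.81 and 7.41 CPM after stimulation. Every library of replicates 3 and 4 was above every library of replicates 5 and 6.

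A joint test of the replicate number, chosen after these values were seen, called 31.7% of all tested genes and 3 of the 7 members. *Rgs2* had an adjusted p of 5.13e-07, with log2 differences from replicate 3 of −0.25, 3.64 and 3.07 in replicates 4, 5 and 6. *Rgs19* had an adjusted p of 1.25e-05 (edgeR), with differences of −0.02, −0.57 and −0.88. *Rgs17* had an adjusted p of 0.0326, with differences of −0.22, 0.16 and 0.76. *Rgs3*, *Rgs4*, *Rgs10* and *Rgs12* did not pass, with adjusted p-values of 0.628, 0.0614, 0.0917 and 0.0924.

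**Figure D4:**
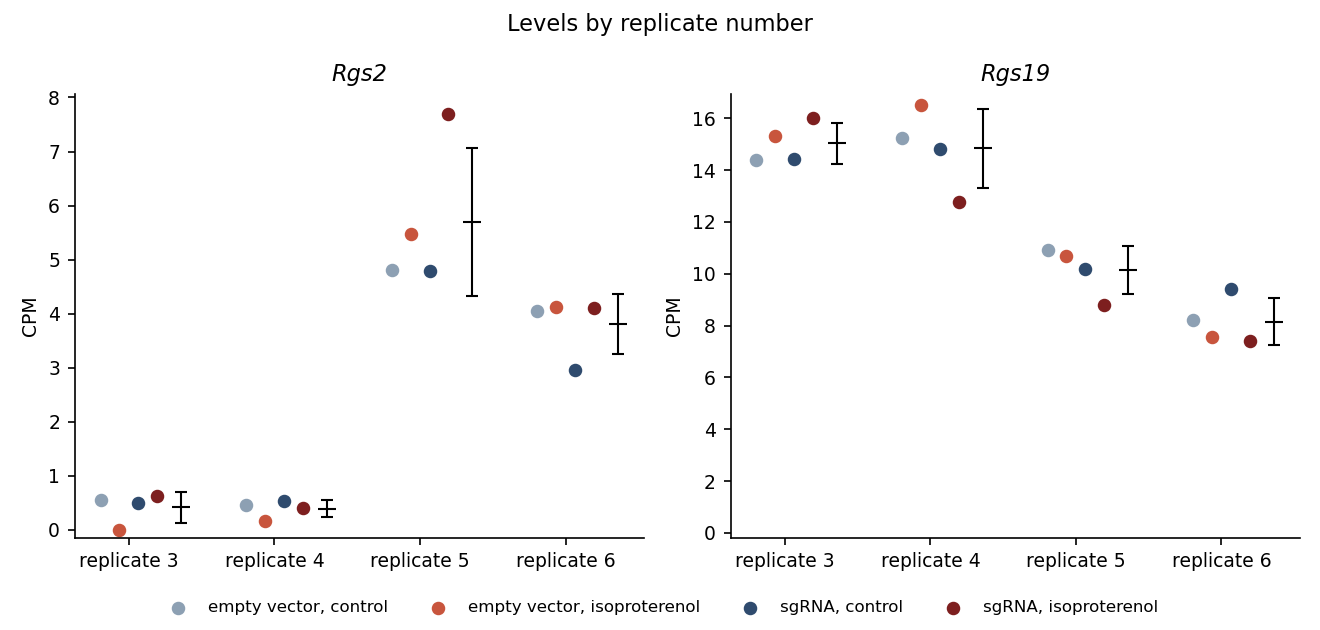
Levels of *Rgs2* (left) and *Rgs19* (right) in CPM by replicate number on the horizontal axis. Each point is a library coloured by group, and black bars are the mean ± SD over the 4 libraries of a number. *Rgs2* is at or below 0.62 CPM in replicates 3 and 4 and at or above 2.96 CPM in replicates 5 and 6, while *Rgs19* is higher in replicates 3 and 4.

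Marker lists also differed between the replicate numbers. The 8 brown adipocyte markers summed to 424 to 595 CPM in replicate 5, where *Rgs2* was highest. In replicates 3, 4 and 6 they summed to 262 to 372, 202 to 340 and 254 to 368 CPM. By the group means, most of this sum was *Elovl3*. The 7 mural markers summed to 37.6 to 54.6 CPM in replicate 3, 32.8 to 44.6 in replicate 4, 53.7 to 78.9 in replicate 5 and 73.6 to 104 in replicate 6. The 6 preadipocyte or fibroblast markers summed to 63.3 to 117 CPM in replicate 6 and to 14.1 to 68.0 CPM in the other 3 numbers. The 7 adipocyte markers summed to 9501 to 16171 CPM in replicate 6 and to 12024 to 22606 CPM in the others. Of the preadipocyte list 4 of 6 genes, and of the endothelial list 1 of 4, were counted in every library, and no gene of any marker list was at 0 throughout. The 6 immune markers summed to 7.14 to 20.1, 13.8 to 22.6, 6.44 to 14.4 and 9.42 to 20.1 CPM in replicates 3, 4, 5 and 6. In the same order, the ribosomal RNA gene took 18.6% to 41.6%, 11.7% to 22.1%, 20.0% to 51.8% and 19.7% to 31.7% of counts. The part of the markers and of this share in the differences of *Rgs2*, *Rgs19* and *Rgs17* was not tested, and what the replicate numbers stand for is not stated.

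Over the 16 libraries, genes whose log2 CPM followed *Rgs17* closely included *Vdr*, the vitamin D receptor (Pearson's r = 0.923), and *Gclc*, which makes glutathione's precursor (0.921). For *Rgs2* the closest were *Zadh2* (0.963), *Cdo1*, a cysteine dioxygenase (0.963), and *Plin4*, a lipid droplet protein (0.956), and for *Rgs3* *Ube2g2* (0.855), *Tk1* (0.850) and *Lrpap1* (0.846). Those of *Rgs2* and *Rgs3* were looked up after their values were seen. Among the members, the r of *Rgs17* and *Rgs3* was −0.797, and that of *Rgs2* and *Rgs19* was −0.861. These values describe libraries that share treatment, plasmid and replicate number, and carry no test.

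The other genes of the pathway were taken as 4 lists, whose calls for isoproterenol stand beside 2.65% of all tested genes called without the block and 5.70% with it. With so few genes in each list, a count of 0 or 1 was near that background. Of 26 other genes with an RGS domain, 12 were tested, and 0 were called for isoproterenol without or with the block. An unadjusted p below 0.05 was found for 2 of the 12, and for 4 in the blocked fit of edgeR, beside 17.7% and 33.5% of all tested genes. Their log2 changes lay between −0.10 and 0.36, with 6 above and 6 below 0 and a median of 0.01.

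Of 33 genes of G protein subunits, 19 were tested. The unblocked fit called 0 of them, and 4 had an unadjusted p below 0.05, beside 17.7% of all tested genes. The blocked fit called 1, *Gng2*, a γ subunit. It was lower with isoproterenol by a log2 change of −0.71 (SE 0.22, adjusted p = 0.0827), and fell by the blocked test, with the same −0.71 (SE 0.13, adjusted p = 0.00102, edgeR). The median of the 19 was 0.03. *Gnai2* and *Gnai3*, which encode the Gαi proteins that RGS proteins act on, had blocked changes of −0.18 (SE 0.05) and 0.20 (SE 0.06), both smaller than the fold required for a call.

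Of 14 other modulators of G proteins, 7 were tested and 0 called, with a median log2 change of −0.07. The N-degron genes, which encode the enzymes that degrade RGS4, RGS5 and RGS16, were all 5 tested and 0 called, with changes from 0.00348 to 0.17 and a median of 0.07. In the blocked fit, an unadjusted p below 0.05 was found for 3 of the modulators and 1 of the N-degron genes, and in the unblocked fit of edgeR for 1 and 0. The shares of all tested genes were 33.5% and 17.7%. For the sgRNA vectors, 0 genes of these 4 lists were called in either fit. In the unblocked fit, 1 G protein subunit and 0 genes of the other 3 lists had an unadjusted p below 0.05, beside 3.32% of all tested genes. In the blocked fit these were 2 subunits, *Gnai2* and *Gnb1*, and 0 genes of the other 3 lists, beside 11.5% of all tested genes. *Gnai2* had the lowest adjusted p, with a log2 change of −0.21 (SE 0.05, adjusted p = 0.0548, edgeR).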

How the data were processed

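The authors trimmed reads with cutadapt, quantified them with Salmon against the GRCm38 transcriptome and deposited estimated counts per gene, not normalised. Tool versions and the use of strand were not given in the sources used here, so antisense and overlapping genes are uncertain. Of 54347 identifiers, 54094 matched GENCODE M21 (GRCm38), which gave positions and exon lengths. All counts were whole, and rounding changed none. Every column matched 1 sample title, and groups were taken from the titles.

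Genes were tested with edgeR 4.0.16 (R 4.3.3) after filtering by filterByExpr (minimum count 10, minimum total 15), with TMM scaling and 4 group means (glmQLFit and glmQLFTest, two-sided, Benjamini-Hochberg adjustment over 13150 genes). DESeq2 1.42.0, DESeq2 size factors, no filter, the ribosomal RNA gene left out and omission of each library or replicate number were alternatives, as was the replicate number as a block. The fits were tested on simulated data. These data held no difference between replicate numbers, so they could not decide between the fits with and without the block. CPM used the TMM-scaled library, and correlations used log2 CPM with a prior count of 2.

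Pairing by replicate number was checked by subtracting each group's mean log2 CPM and correlating libraries. The correlation was above 0.1 in all 24 pairs of the same number (lowest 0.224, median 0.410). Over 72 pairs of different numbers in other groups the median was −0.215 and the highest 0.516. On these values the numbers were taken to pair the libraries. The median biological coefficient of variation was 18.0% without and 9.96% with the block.

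All 10 members were named, with *Gm15551* and *Ucp1* as checks, called genes of the lists, and the 3 genes most correlated with a called member, of which 1 is not reported here. Members and lists were chosen with earlier results of these data known. Promoter windows came from RefSeq (GRCm38.p6).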

Additional observations from a re-analysis of the deposited data

Results flagged for a closer look

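The level of *Rgs17* in the empty vector control library of replicate 6 was 1.45 CPM, from 14 counts, while the other 3 libraries of the group lay at 0.39 to 0.42 CPM. It stood apart from its group by Dixon's test at the 95% level. Among 28 groups of 4 libraries examined (7 genes in 4 groups) it was the 1 so marked, and chance marks about 1 in 20 groups. The same library had the lowest *Rgs3* and the highest *Rgs4* of its group, at 3.01 and 3.53 CPM. Without it, the isoproterenol effect on *Rgs17* in empty vector cells was 2.14 on the log2 scale in place of 1.47.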

How the results depend on the processing

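The members called for the averaged isoproterenol effect were 1 in the model of 4 group means, and 2 with the replicate block, with DESeq2's Wald test and with DESeq2 and the block. In empty vector cells the members called were 0, and 1 with each of those 3. G protein subunits called went from 0 to 1 with each of those 3. In the 20 fits without the block that left out a library or a replicate number, 0 to 2 members were called for the averaged isoproterenol effect, 0 to 1 in empty vector cells, and 0 G protein subunits. In the 4 fits that combined the block with leaving out a replicate number, these counts were 1 to 2, 0 to 2 and 1. The value of 2 in empty vector cells came without replicate 6, where *Rgs3* was called besides *Rgs17*. The block changed no other call of a member. The shares of all tested genes called that are given above come from edgeR's fits of all libraries. No such share is given for DESeq2 or for fits that left out a library or a replicate number. The counts from those fits stand without a background.

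Reversals were confined to values that passed no test. In empty vector cells, the isoproterenol change of *Rgs2* was −0.25 with the replicate block, −0.000315 with DESeq2 and −0.31 with DESeq2 and the block. The averaged sgRNA change of *Rgs17* was 0.00179 without the filter. The interaction for *Rgs4* was −0.15 with the block and −0.23 with DESeq2 and the block.

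Leaving out a library or number also turned values that passed no test, and the ranges given here cover the 20 fits without and the 4 with the block. For averaged isoproterenol, *Rgs2* ran from −0.16 to 0.65, *Rgs4* from −0.69 to 0.19 and *Rgs19* from −0.15 to 0.042. In empty vector cells, *Rgs2* ran from −0.69 to 0.59, *Rgs4* from −0.77 to 0.58, *Rgs19* from −0.15 to 0.21 and *Rgs12* from −0.25 to 0.048. In sgRNA cells, *Rgs2* ran from −0.36 to 1.26, *Rgs4* from −0.98 to 0.15 and *Rgs19* from −0.33 to 0.037. For the averaged sgRNA effect, *Rgs2* ran from −0.28 to 0.52, *Rgs17* from −0.14 to 0.30, *Rgs19* from −0.19 to 0.0054 and *Rgs10* from −0.42 to 0.069. For the interaction, *Rgs2* ran from −0.39 to 1.23, *Rgs3* from −0.14 to 0.34, *Rgs4* from −0.84 to 0.77, *Rgs19* from −0.36 to 0.026 and *Rgs10* from −0.21 to 1.04. Of these ends, 5 came from fits with the block, and without it they were 0.16 for *Rgs4* with averaged isoproterenol (0.19 with the block), −0.90 for *Rgs4* in sgRNA cells (−0.98), 0.034 for *Rgs10* with the averaged sgRNA effect (0.069), and −0.093 for *Rgs3* (−0.14) and 1.03 for *Rgs10* (1.04) in the interaction. The cause of these changes was not tested.

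The block combined with leaving out a replicate number was added after the data were seen. The counts limit what can be said of *Rgs5*, *Rgs14* and *Rgs16*, and of *Rgs17*, which had 3 to 28 counts per library.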
